A study of Homo sapiens with 30 samples.

Results

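The respiratory chain of the mitochondrial inner membrane is built from subunits of 2 genomes, and the genes described here are the nuclear ones. They were chosen by symbol: genes whose symbols start with NDUFA, NDUFB, NDUFC, NDUFS or NDUFV for complex I, SDHA to SDHD for complex II, UQCR genes for complex III, COX4 to COX8 genes for complex IV and ATP5 genes for complex V. The 181 pseudogenes, 8 NDUFAF assembly factor genes and 6 antisense or divergent transcripts that match these letters were left out. The rule gave 90 genes present in all 3 count tables, of 60612 genes in the knockout table and 56303 in each of the others. Complex I had 38 of them, complex II 4, complex III 9, complex IV 18 and complex V 19. The readthrough genes NDUFC2-KCTD14 and ATP5MF-PTCD1 were placed in no complex. NDUFA4 was counted in complex IV, of which it is a subunit despite its name. Its relative NDUFA4L2 was left in complex I by its symbol alone. ATP5IF1, the inhibitor protein of ATP synthase, was counted in complex V. CYC1, which encodes cytochrome c1 of complex III, does not carry a symbol of the rule and is described with cytochrome c.

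Complex I takes electrons from NADH and complex II from succinate, and both pass them through ubiquinone to complex III. Cytochrome c then carries them to complex IV, which reduces oxygen. Complexes I, III and IV pump protons out of the matrix, and complex V (ATP synthase) uses the return flow to make ATP. Complex II is encoded in the nucleus alone, whereas the other complexes also hold subunits made from mitochondrial DNA.

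RNA-seq was run on 5637 cells, a line from a human bladder carcinoma, with 3 libraries in each of 10 groups. In the knockout table, 2 RBPMS knockout groups made with different sgRNAs (KO1 and KO2) stood beside wild-type controls of the same number (WT1 and WT2), which the paper calls sgCtrl. RBPMS is an RNA-binding protein that regulates splicing, and according to the paper the knockout populations went through expansion from single clones. The overexpression table held cells with empty Vector, with the ANKRD10-1 isoform and with the ANKRD10-2 isoform of ANKRD10. The knockdown table held cells transfected with the control siRNA (siNC), siANKRD10-1 or siANKRD10-2. The paper describes ANKRD10-1 overexpression and siANKRD10-2 in RBPMS knockout cells, while the labels name 5637 cells only and give 1 control group per table, so the RBPMS background of these groups is not settled here. Nothing in the labels says that the 3 libraries of a group came from separate cultures, and p-values then measure the spread between these libraries, which may be technical.

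Library totals ran from 44593108 to 69723937 counts in the knockout table, from 31736779 to 47493499 in the overexpression table and from 28511029 to 32784584 in the knockdown table. The 90 genes took 0.578% to 0.6824% of the counts in the knockout table, 0.4797% to 0.5219% in the overexpression table and 0.6028% to 0.7049% in the knockdown table. RBPMS fell in KO1 (log2 fold change -1.44) and KO2 (-1.09), and ANKRD10 counts, which do not separate the isoforms, fell in both as well (-1.18 and -0.76). ANKRD10 rose with ANKRD10-1 (0.67) and ANKRD10-2 (0.41) overexpression and fell with siANKRD10-1 (-0.24) and siANKRD10-2 (-0.25). RBPMS was not called against their controls, at -0.19 with ANKRD10-1, 0.08 with ANKRD10-2, -0.11 with siANKRD10-1 and 0.03 with siANKRD10-2. Of the markers of the cell line, KRT19 lay between 565.9 and 1171 CPM (counts scaled to a common library size) in every library, whereas the urothelial differentiation genes UPK1B, UPK2 and UPK3A did not exceed 1.876 CPM. Of markers of other cell types, the leukocyte genes PTPRC and CD3E stayed at or below 0.414 CPM and the endothelial genes CDH5, PECAM1 and VWF at or below 2.096 CPM. The leukocyte marker CD68 reached 1.589 CPM in the knockout table, 23.7 in the overexpression table and 14.74 in the knockdown table. Among fibroblast markers COL1A1 lay between 26.66 and 52.25 CPM in all libraries, while COL1A2, DCN and LUM did not exceed 6.916 CPM. Cell number and RNA content per cell cannot be told apart in bulk RNA.

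Many of these genes are known targets of NRF1 (nuclear respiratory factor 1), of ETS-family factors such as GABP and, at E-boxes, of MYC and its relatives. The promoter table (RefSeq, GRCh38.p14, from 250 bases before to 50 after each start) held 73 of the 90 genes. The NRF1 core GCATGCGC, searched on both strands, stood in 13 of them (17.81%) and in 3.053% of all 35116 promoters. The ETS core CCGGAAG stood in 20 (27.4%, against 10.26% of all promoters), and the E-box CACGTG in 7 (9.589%, against 7.256%). The NRF1 core can overlap its own reverse complement, the E-box is its own reverse complement, and none of these letters overlaps another of the motifs in the stretches below. They are shown as examples of each motif from genes whose changes are described later: SDHB rose in both knockouts, UQCRH, COX6A1 and ATP5ME fell with siANKRD10-2, and ATP5PB moved in 4 comparisons. Each is written 5′ to 3′ in the direction of its gene, with the motif in capitals.
SDHB, ETS core, chr1:17054144-17054170, minus strand: acccgggaaaCCGGAAGccgcctccca
SDHB, NRF1 core, chr1:17054215-17054242, minus strand: agccaaatggGCATGCGCcgctactgcg
UQCRH, ETS core on the opposite strand, chr1:46303642-46303668, plus strand: gtgtgccgcaCTTCCGGccagatcgcc
COX6A1, NRF1 core, chr12:120437885-120437912, plus strand: gagggcacacGCATGCGCacgaaggaaa
ATP5ME, E-box, chr4:674423-674448, minus strand: gcgtgcgcctCACGTGacgtcaccgc
ATP5PB, E-box, chr1:111449231-111449256, plus strand: cagcaaacccCACGTGgtgcacctct
The ETS stretches of SDHB and UQCRH lie before the RefSeq starts but inside the longer gene models of the count tables. A match of letters is a description of the window and not a bound site. The genes with an E-box in this window were ATP5MC1, ATP5ME, ATP5PB, NDUFA11, NDUFA7, NDUFS7 and UQCR11, so none of the matched promoters of complexes II and IV had one.

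Levels were compared between genes per kilobase of gene model and within a table only. The lengths, from 507 to 14160 bases, came from the overexpression table, as the knockout table gives none. Ranks depend on these lengths. Before scaling to length, ATP5F1A had 324.1, 354.4 and 368.0 CPM in WT1 and COX8A 85.0, 83.6 and 82.3. The tables were normalized separately, and some genes differed widely between their control groups: ATP5F1A was at 31.98 CPM per kilobase in WT1, 4.435 in Vector and 8.613 in siNC, and COX8A at 164.9, 10.13 and 12.47. The readthrough gene NDUFC2-KCTD14 had 1.02 to 1.41 CPM in WT1 before scaling to length, where NDUFC2 had 96.6 to 105.5. In Vector they had 11.3 to 13.3 and 10.8 to 13.2 CPM, and in siNC 26.9 to 29.4 and 26.9 to 28.8. Overlapping genes thus stood in unlike relation in the knockout table and the others. Whether the tables were counted alike was not tested, so the leading genes of each table hold for that table alone. In WT1, COX8A of complex IV was the highest of the 90 genes, at 164.9 ± 2.66 CPM per kilobase (SD, n = 3). The catalytic β subunit gene ATP5F1B led complex V at 137.9 ± 1.46, NDUFS5 led complex I at 130.7 ± 10.7, UQCRH led complex III at 66.95 ± 4.70 and SDHD led complex II at 25.52 ± 1.74. SDHC was the lowest gene of complex II at 6.956 ± 0.250 CPM per kilobase. Median levels in WT1 were 18.16 CPM per kilobase for complex I, 16.1 for complex II, 28.04 for complex III, 24.48 for complex IV and 23.77 for complex V, and complex II was the lowest. In the Vector and siNC groups the leading genes were NDUFS5 (299.4 and 697.1 CPM per kilobase), SDHA (18.49 and 17.68), UQCRH (59.07 and 133.1), COX6C (257.1 and 243.2) and ATP5PF (73.73 and 84.29).

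Several subunits have a paralogue used in few tissues, and for most of them the common form was the one with counts in these cells. COX4I1, COX6A1, COX7A2, COX7B and COX8A were all expressed, while their counterparts COX4I2, COX6A2, COX7A1, COX7B2 and COX8C passed the filter on low counts in none of the 6 comparisons with a control group, nor did ATP5MGL. The remaining 84 genes were tested in all 6 comparisons, except ATP5MF-PTCD1, which was not tested in KO1. NDUFA4L2, the hypoxia-inducible relative of NDUFA4, was the lowest of the genes counted in complex I by symbol. It was at 0.1111 ± 0.0597 CPM per kilobase in WT1, 0.5203 ± 0.0946 in Vector and 0.1843 ± 0.0260 in siNC (SD, n = 3). COX6B2, the testis form of COX6B, was closer to COX6B1 in the overexpression table than in the others. Per kilobase it was at 0.2336 ± 0.117 CPM in WT1 beside 81.9 ± 0.716 for COX6B1, at 0.3959 ± 0.105 beside 25.62 ± 2.16 in siNC, and at 1.56 ± 0.0362 beside 7.305 ± 0.773 in Vector (SD, n = 3). Before scaling to length the Vector libraries had 5.80 to 6.06 CPM of COX6B2 and 6.04 to 7.45 CPM of COX6B1. UQCRHL is a near copy of UQCRH, and the gene models of ATP5MF and ATP5MF-PTCD1 overlap, so how reads were split within these pairs is uncertain.

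In KO1, more of the respiratory chain genes rose than fell. SDHB, ATP5MC1, NDUFAB1 and ATP5F1B were among the 26 that rose, and UQCR11, NDUFS7 and COX6B1 among the 7 that fell. Of the 83 genes tested, 31.33% rose and 8.434% fell (edgeR adjusted p under 0.05), against a background of 17.9% higher and 18.2% lower among all 17865 genes tested. The median log2 fold change of the 83 was 0.12, and that of all genes was -0.00. For genes with a mean normalized count of at least 50, medians were also taken by gene length. In bins parted at 1000, 2000, 4000 and 8000 bases they were 0.07, 0.13, 0.07, 0.12 and 0.13 for respiratory chain genes. Other genes of these bins had medians of 0.09, 0.12, 0.08, 0.02 and -0.08. Below 4000 bases the medians of respiratory chain genes and other genes were thus close. By complex, 12 genes of complex I rose and 4 fell, complex II had 3 and 0, complex III 3 and 2, complex IV 0 and 1, and complex V 8 and 0. Median changes were 0.10, 0.24, 0.06, 0.12 and 0.18 in that order. Complex IV thus had no riser, although its median was above 0. Changes were small, and 1 of the called genes reached 1.5-fold.

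In KO2, 20 genes rose and 4 fell of 84 tested (23.81% and 4.762%), where 19.3% of all 18267 genes tested were higher and 19.2% lower. The median was 0.04, beside -0.02 for all genes. Complex I had 9 rises and 3 falls, complex II 1 and 0, complex III 1 and 0, complex IV 2 and 1, and complex V 7 and 0. No gene of complex V fell in either knockout. The call count dropped from 24 to 15 when KO2 replicate 2 was left out.

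**Figure D1:**
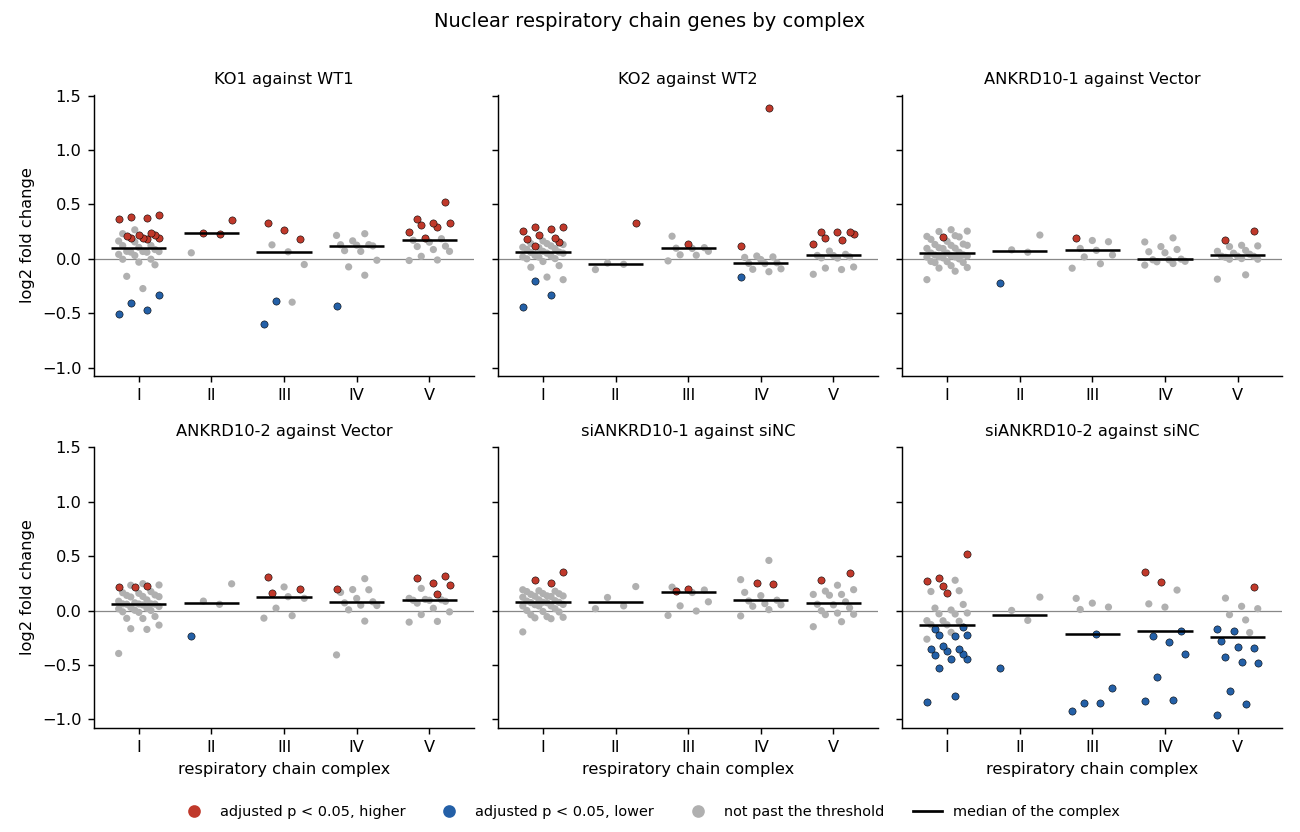
Log2 fold change (vertical axis) of the respiratory chain genes by complex I to V (horizontal axis) in the 6 comparisons with a control group, for genes with a mean normalized count of at least 50. Each point is a gene, coloured by its call at an edgeR adjusted p under 0.05, and the black line is the median of all tested genes of the complex. Most points of the siANKRD10-2 panel lie below 0, with medians of -0.13, -0.04, -0.22, -0.19 and -0.24.

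Genes that rose in both knockouts came from complexes I, II and V. There were 9 of them among the 83 genes tested in both (27.27% of the 33 called in KO1 and 37.5% of the 24 called in KO2): SDHB, NDUFAB1, ATP5MK, ATP5F1B, NDUFS6, NDUFA9, ATP5MC1, ATP5PB and NDUFV1. These were 10.8% of the 83, close to the 9.44% of all 17445 genes tested in both that rose in both. None fell in both, beside 8.28% of all genes. SDHB encodes the iron-sulfur subunit of succinate dehydrogenase and lies at chr1:17018722-17054170 on the minus strand (GRCh38). Its level was 39.5, 43.7 and 45.3 CPM in WT1 and 50.7, 52.5 and 61.2 in KO1, then 34.0, 39.8 and 38.8 in WT2 and 46.5, 46.4 and 49.1 in KO2. Every knockout library was above every control library of its number, with log2 fold changes of 0.35 ± 0.08 (SE, edgeR adjusted p = 0.005552) and 0.33 ± 0.06 (adjusted p = 0.001277).

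NDUFAB1, the mitochondrial acyl carrier protein that is also a complex I subunit, had 38.01, 37.98 and 40.01 CPM in WT1 and 47.3, 53.5 and 52.7 in KO1. It had 36.9, 38.8 and 38.8 CPM in WT2 and 47.0, 46.8 and 47.1 in KO2. The groups did not overlap in either pair, and the log2 fold changes were 0.40 ± 0.06 (SE, edgeR adjusted p = 0.0006454) and 0.29 ± 0.05 (adjusted p = 0.0004046). ATP5MC1, 1 of 3 genes for the c-ring of ATP synthase, rose by 0.52 ± 0.08 in KO1 (adjusted p = 0.0005179), the largest rise called there, and by 0.19 ± 0.05 in KO2 (adjusted p = 0.0066). ATP5F1B went from 316.4, 322.9 and 321.5 CPM to 397.4, 398.5 and 415.9 in KO1 (0.33 ± 0.04) and from 300.7, 310.7 and 326.3 to 367.0, 363.3 and 369.2 in KO2 (0.22 ± 0.04). In KO1, the calls of ATP5MK and NDUFS6 were lost in 3 and 2 of the 6 fits that left out 1 library.

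The falls in KO1 came from 2 chromosomes. UQCR11, NDUFA3, NDUFS7, COX6B1, NDUFA11 and UQCRFS1 lie on chromosome 19 and NDUFV3 on chromosome 21. The 14 tested respiratory chain genes on these chromosomes had 0 rises, 7 falls and a median log2 fold change of -0.30, while the 69 elsewhere had 26 rises, 0 falls and a median of 0.16. The other tested genes of the same chromosomes were lower too: the median was -0.38 over 1186 genes on chromosome 19, of which 46.12% fell, and -0.28 over 199 genes on chromosome 21, of which 37.69% fell. In KO2 the chromosome 19 median was -0.00 and that of chromosome 21 was 0.15. The part of the chromosome-wide shift in these falls was not tested.

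UQCR11, a small subunit of complex III at chr19:1597172-1605490 on the minus strand (GRCh38), fell furthest. Its level was 55.2, 60.9 and 64.9 CPM in WT1 and 37.8, 35.7 and 46.3 in KO1, without overlap, and the log2 fold change was -0.60 ± 0.10 (SE, edgeR adjusted p = 0.0005994). In KO2 it had 58.7, 57.7 and 66.2 CPM beside 53.7, 57.1 and 58.7 in WT2, which overlap. NDUFS7, a core iron-sulfur subunit of complex I, had 33.7, 32.0 and 30.7 CPM in WT1 and 23.4, 20.9 and 25.1 in KO1 (-0.47 ± 0.08, adjusted p = 0.0009181). COX6B1, a complex IV subunit facing the intermembrane space, had 75.9, 77.1 and 77.0 CPM in WT1 and 54.3, 53.6 and 62.7 in KO1 (-0.43 ± 0.07, adjusted p = 0.0004153). In both genes the 3 KO1 libraries were below the 3 WT1 libraries.

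Chromosome 9 was the low one in KO2. The median log2 fold change of its 722 other tested genes was -0.41 and 54.85% of them fell, whereas in KO1 the median was 0.07 and 25.14% rose. The tested respiratory chain genes of chromosome 9 are NDUFA8 (chr9:122144058-122159819, minus strand) and NDUFB6 (chr9:32552999-32573184, minus strand), both accessory subunits of complex I, and both fell. NDUFB6 had 31.5, 37.1 and 33.6 CPM in WT2 and 22.4, 26.4 and 26.8 in KO2 (-0.44 ± 0.08, edgeR adjusted p = 0.001022). NDUFA8 had 57.0, 59.2 and 58.9 CPM in WT2 and 44.1, 48.1 and 47.2 in KO2 (-0.33 ± 0.05, adjusted p = 0.0002129), but 51.2, 55.0 and 62.0 in WT1 and 73.8, 67.5 and 78.9 in KO1 (0.39 ± 0.08, adjusted p = 0.002854). The 82 genes on other chromosomes had 20 rises and 2 falls in KO2. Those falls were NDUFA5 (-0.21 ± 0.04) and COX6C (-0.16 ± 0.06), and the COX6C call was kept in 1 of 6 fits that left out a library. All 3 tested respiratory chain genes on chromosome 21 rose in KO2.

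**Figure D2:**
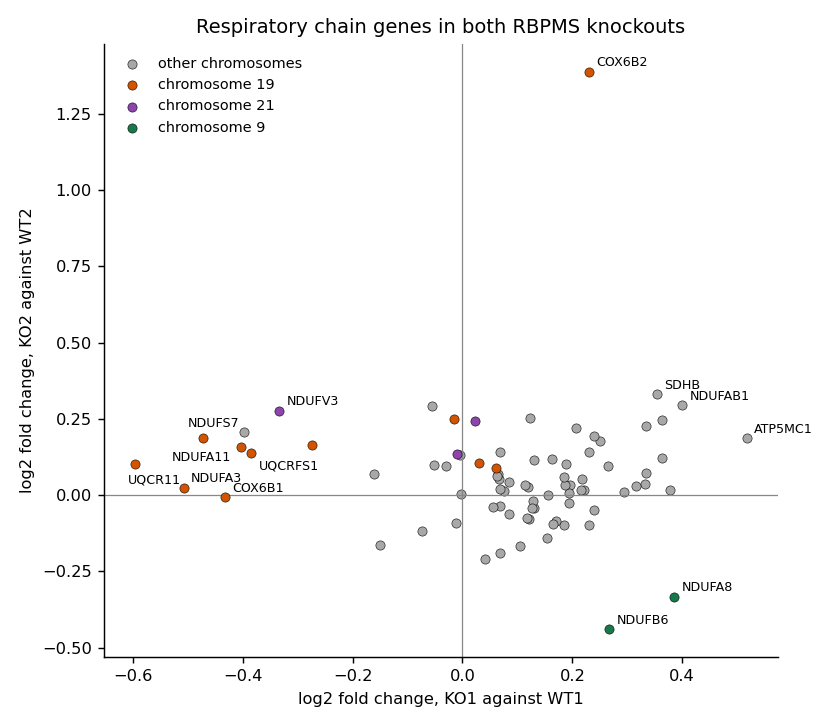
Log2 fold change in KO1 against WT1 (horizontal axis) and in KO2 against WT2 (vertical axis), each point being a respiratory chain gene with a mean normalized count of at least 50 in both, and the colour its chromosome (19, 21, 9 or other). Chromosome 19 genes lie mostly left of 0, with UQCR11 at -0.60 in KO1, and NDUFA8 and NDUFB6 of chromosome 9 lie below 0 in KO2.

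The 5 genes called in opposite directions in the knockouts (6.02% of 83, beside 4.16% of all genes) lie on chromosomes 9, 19 and 21. NDUFA8 rose in KO1 and fell in KO2, and NDUFV3, NDUFS7, NDUFA11 and UQCRFS1 did the reverse. NDUFV3, a complex I accessory subunit, had 34.2, 34.5 and 34.6 CPM in WT1 and 26.3, 28.1 and 27.7 in KO1 (-0.33 ± 0.06, edgeR adjusted p = 0.001717), then 27.8, 34.5 and 32.7 in WT2 and 37.8, 38.8 and 38.8 in KO2 (0.28 ± 0.07, adjusted p = 0.009744). With upper quartile scaling or no filter on low counts, the KO2 calls of NDUFS7, NDUFA11 and UQCRFS1 were lost and 2 opposite genes were left. The difference between the knockout effects was tested directly over the 12 libraries. It was positive (KO1 effect above KO2 effect) for 12 and negative for 9 of 84 genes, 14.29% and 10.71%, where 11.2% and 12.1% of all 19189 genes tested were called in these directions. The controls WT2 and WT1 differed in none of 83 genes by edgeR (4 had an unadjusted p under 0.05, and DESeq2 called 0), beside 0.578% higher and 0.654% lower among all 18335 genes.

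COX6B2 had the largest rise of KO2, with a mean normalized count above the minimum of 50 set for naming. It had 0.967, 1.60 and 1.24 CPM in WT2 and 3.22, 3.47 and 3.30 in KO2, a 2.617-fold increase (log2 1.39 ± 0.23, edgeR adjusted p = 0.000505). In KO1 its levels of 1.12, 0.753 and 1.25 CPM overlapped those of WT1, at 1.401, 0.575 and 0.697. The common form COX6B1 was at 70.4 to 76.6 CPM in KO2. Of complex II, SDHB, SDHC (0.24 ± 0.06) and SDHD (0.23 ± 0.06) rose in KO1, and SDHA, the flavoprotein subunit, was at 0.06 and not called. SDHB alone was called in KO2.

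**Figure D3:**
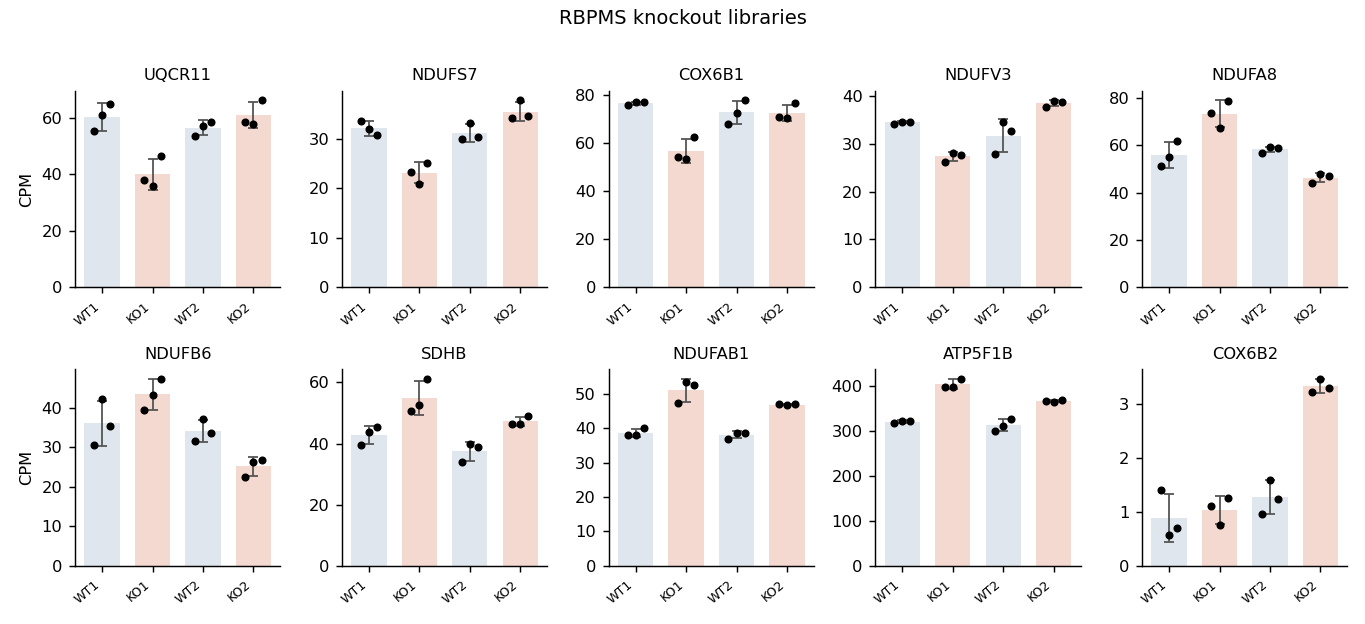
Level in CPM (vertical axis) of 10 respiratory chain genes in WT1, KO1, WT2 and KO2. Bars are means, error bars are SD over 3 libraries and dots are the libraries. UQCR11, NDUFS7 and COX6B1 are low in KO1 alone, NDUFA8 and NDUFB6 are low in KO2 alone, and SDHB and NDUFAB1 are above their controls in both.

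Overexpression of the ANKRD10 isoforms moved few of the genes, nearly all upwards. ANKRD10-1 gave 4 rises and 1 fall of 84 (4.762% and 1.19%), against 3.5% higher and 2.81% lower among all 20457 genes tested. ANKRD10-2 gave 12 rises and 1 fall (14.29% and 1.19%), against 10.7% higher and 9.25% lower among 20177. Median log2 fold changes were 0.05 and 0.08. With ANKRD10-2, complex I had 3 rises, complex III 3, complex IV 1 and complex V 5, and complex II had the single fall. Of the individual genes, 60 of 84 were above 0 with ANKRD10-1 (71.43%, beside 49.2% of all genes tested). With ANKRD10-2 65 of 84 were above 0 (77.38%, beside 49.11%). The calls depended on single libraries: the ANKRD10-1 count of 5 became 0 without ANKRD10-1 replicate 2, 1 without Vector replicate 2 or ANKRD10-1 replicate 3, and 2 without Vector replicate 1 or ANKRD10-1 replicate 1. The ANKRD10-2 count of 13 became 3 without Vector replicate 2, and 7 without Vector replicate 1 or ANKRD10-2 replicate 1.

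ATP5PD, UQCRB and ATP5MG rose with both isoforms, as did NDUFA1. ATP5PD, a subunit of the peripheral stalk of ATP synthase, had 168.5, 155.8 and 172.2 CPM in Vector, 191.4, 184.8 and 182.8 with ANKRD10-1 and 208.9, 202.5 and 206.1 with ANKRD10-2. The isoform libraries were all above the Vector libraries, and the log2 fold change with ANKRD10-2 was 0.32 ± 0.05 (SE, edgeR adjusted p = 0.0006004). UQCRB, the ubiquinone-binding protein of complex III, had 526.0, 508.0 and 541.1 CPM in Vector, 618.0, 607.0 and 579.0 with ANKRD10-1 (0.20 ± 0.04, adjusted p = 0.01232) and 704.2, 649.1 and 599.0 with ANKRD10-2 (0.31 ± 0.06, adjusted p = 0.001902). ATP5MG, the g subunit of the membrane part of ATP synthase, had 37.1, 40.7 and 42.6 CPM in Vector, 46.3, 48.5 and 49.4 with ANKRD10-1 (0.26 ± 0.06, adjusted p = 0.01293) and 51.1, 46.7 and 50.4 with ANKRD10-2 (0.30 ± 0.06, adjusted p = 0.005235). The ANKRD10-2 calls of these genes were kept in all 6 fits that left out a library.

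SDHC, a membrane anchor of complex II, was the gene that fell with both isoforms. Its level was 64.9, 72.7 and 63.7 CPM in Vector, 58.3, 59.3 and 55.0 with ANKRD10-1 (-0.22 ± 0.06, edgeR adjusted p = 0.02669) and 53.9, 60.4 and 56.2 with ANKRD10-2 (-0.24 ± 0.06, adjusted p = 0.01679). The groups did not overlap, and the calls were kept in 2 and 3 of 6 fits that left out a library. SDHA, SDHB and SDHD were not called with either isoform. The isoforms share the Vector libraries. Compared directly, ANKRD10-2 and ANKRD10-1 differed in 0 of 84 genes by edgeR (3 had an unadjusted p under 0.05, and DESeq2 called 1), where 4.15% of all 20052 genes tested were higher and 3.1% lower.

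COX6C, a complex IV subunit and the highest gene of its complex in this table, had 1 library far from the rest. Vector had 747.6, 818.5 and 798.4 CPM, ANKRD10-1 had 788.7, 732.5 and 773.9, and ANKRD10-2 had 275.9, 739.8 and 765.3. The log2 fold change of -0.41 with ANKRD10-2 was not called (edgeR adjusted p = 0.2789) and was -0.06 without ANKRD10-2 replicate 1. The same gene was called with no filter on low counts (-0.41, adjusted p = 4.841e-17) and with the replicate number as a block (-0.54, adjusted p = 0.01318).

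**Figure D4:**
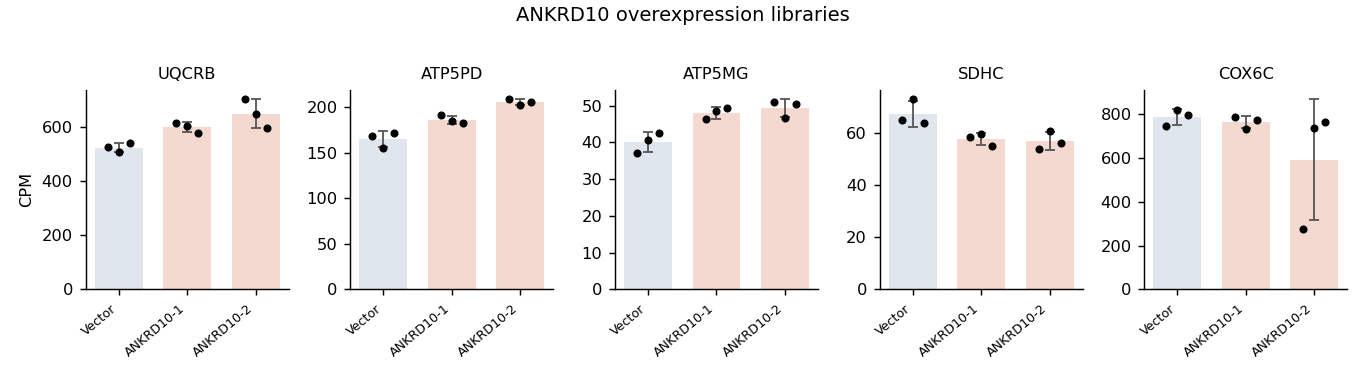
Level in CPM (vertical axis) of UQCRB, ATP5PD, ATP5MG, SDHC and COX6C in Vector, ANKRD10-1 and ANKRD10-2. Bars are means, error bars are SD over 3 libraries and dots are the libraries. UQCRB, ATP5PD and ATP5MG are above Vector with both isoforms, and 1 ANKRD10-2 library of COX6C lies at 275.9 CPM.

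The siRNAs gave unlike patterns in the respiratory chain. With siANKRD10-1, 9 of 84 genes rose and none fell, that is 10.71% and 0%, against 5.08% higher and 5.52% lower among all 18785 genes tested. With siANKRD10-2, 9 rose and 41 fell, 10.71% and 48.81%, against 17.6% higher and 18.7% lower among 18924. Median log2 fold changes were 0.08 and -0.17. Of the 50 genes called with siANKRD10-2, 13 changed by at least 1.5-fold. In 41 of 84 genes all siANKRD10-2 libraries were below all siNC libraries, beside 23.8% of all genes, and in 11 they were all above, beside 22.72%.

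Falls with siANKRD10-2 were found in every complex. Complex I had 6 rises and 16 falls of 38 tested, complex II 0 and 1 of 4, complex III 0 and 5 of 9, complex IV 2 and 7 of 13, and complex V 1 and 11 of 18. By role, the 7 nuclear core subunits of complex I, which carry the flavin and the iron-sulfur clusters, had 1 rise and 3 falls, and 30 other subunits had 4 and 13. NDUFA4L2, counted in complex I by symbol alone, rose and was placed in neither set. All 3 c-ring genes of ATP synthase fell, with a median log2 fold change of -0.48, as did 3 of 5 genes of its F1 part and 2 of 4 of its peripheral stalk. In complex III, 3 of the 5 small subunits fell, with a median of -0.71, and of the large structural subunits UQCRC2 fell by 0.22 while UQCRC1 was at 0.11 and not called. Medians by gene length lay between -0.23 and -0.06 for the respiratory chain genes, while those of other genes lay between -0.04 and 0.02.

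ATP5MF, the f subunit of the membrane part of ATP synthase (chr7:99448475-99466331, minus strand, GRCh38), fell furthest. Its level was 55.7, 51.2 and 62.8 CPM with siNC, 59.2, 52.2 and 55.5 with siANKRD10-1 and 27.4, 31.8 and 28.2 with siANKRD10-2. The last group was below all other libraries, with a log2 fold change of -0.96 ± 0.07 (SE, edgeR adjusted p = 1.166e-10). Its overlapping readthrough gene ATP5MF-PTCD1, which is among the 41 falls, fell by 0.55 ± 0.07 and may share reads with ATP5MF. ATP5MC1 went from 11.6, 11.8 and 11.1 CPM with siNC to 6.03, 6.99 and 6.02 with siANKRD10-2 (-0.86 ± 0.11, adjusted p = 3.949e-07), and ATP5ME, the e subunit, fell by 0.74 ± 0.07.

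In complex III, UQCRH, the hinge protein that binds cytochrome c1, had 177.3, 175.5 and 209.3 CPM with siNC, 188.1, 173.4 and 198.7 with siANKRD10-1 and 100.2, 114.7 and 95.9 with siANKRD10-2 (-0.85 ± 0.07, edgeR adjusted p = 2.722e-10). UQCRHL, its near copy, moved from 19.6, 19.5 and 21.3 CPM to 10.7, 10.9 and 10.1 (-0.93 ± 0.08, adjusted p = 2.772e-09). UQCR10 fell by 0.85 ± 0.08 and UQCR11 by 0.71 ± 0.07, both small subunits. The siANKRD10-1 libraries of UQCRH and UQCRHL overlapped siNC, so these levels were low in the siANKRD10-2 group alone.

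In complex IV, COX6A1 had 87.4, 87.0 and 93.9 CPM with siNC, 92.6, 81.4 and 95.8 with siANKRD10-1 and 47.1, 52.3 and 51.2 with siANKRD10-2 (-0.83 ± 0.06, edgeR adjusted p = 2.698e-11). COX6B1 had 22.8, 22.8 and 26.3 CPM with siNC and 12.2, 14.2 and 14.2 with siANKRD10-2 (-0.82 ± 0.09, adjusted p = 2.495e-08). Both are nuclear subunits around the catalytic core, and in both the siANKRD10-2 libraries were the lowest. COX7A2L, which helps join complexes III and IV into supercomplexes, fell by 0.61 ± 0.07, COX7A2 by 0.24 ± 0.06, COX7B by 0.29 ± 0.07 and NDUFA4 by 0.40 ± 0.09. In complex I, NDUFA12 moved from 72.4, 76.4 and 82.2 CPM to 45.1, 44.5 and 39.5 (-0.84 ± 0.06, adjusted p = 1.026e-10), NDUFB6 fell by 0.79 ± 0.12 and the core subunit NDUFS1 by 0.44 ± 0.06. SDHD was the complex II gene that fell (-0.52 ± 0.11).

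Rises were seen with both siRNAs in COX7C, a small nuclear subunit of complex IV. Its level was 150.9, 157.7 and 170.1 CPM with siNC, 183.7, 194.1 and 189.2 with siANKRD10-1 and 187.4, 184.5 and 202.1 with siANKRD10-2. All libraries of both siRNAs were above the siNC libraries, with log2 fold changes of 0.24 ± 0.06 (SE, edgeR adjusted p = 0.009862) and 0.26 ± 0.06 (adjusted p = 0.0006). COX6C rose by 0.35 ± 0.06 and NDUFA6, an accessory subunit of complex I, by 0.30 ± 0.05 with siANKRD10-2. NDUFA4L2 had 0.457, 0.497 and 0.598 CPM with siNC and 1.71, 1.25 and 1.81 with siANKRD10-2, a 3.074-fold increase from a low level (log2 1.62 ± 0.31, adjusted p = 0.0001602). With siANKRD10-1 the rises also included ATP5MG (0.35 ± 0.06) and ATP5PD (0.28 ± 0.06), and the count of 9 rises became 3 without siNC replicate 1, 4 without siNC replicate 2, 5 without siANKRD10-1 replicate 1 and 15 without siANKRD10-1 replicate 2.

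**Figure D5:**
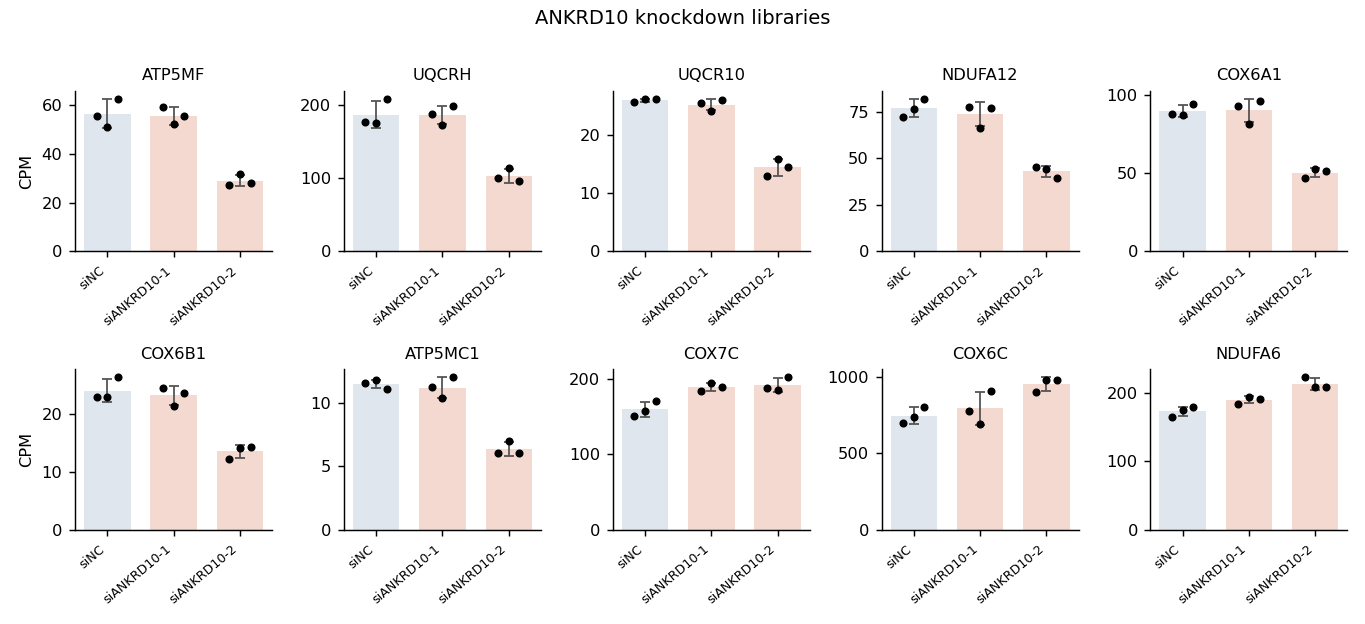
Level in CPM (vertical axis) of 10 respiratory chain genes with siNC, siANKRD10-1 and siANKRD10-2. Bars are means, error bars are SD over 3 libraries and dots are the libraries. ATP5MF, UQCRH, UQCR10, NDUFA12, COX6A1, COX6B1 and ATP5MC1 are low with siANKRD10-2 alone, and COX7C is above siNC with both siRNAs.

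The siRNA groups share the siNC libraries, so they were also compared directly. With siANKRD10-2 against siANKRD10-1, 6 of 84 genes were higher and 50 lower (7.143% and 59.52%), where 18.2% of all 18832 genes tested were higher and 18.8% lower, and the median log2 difference was -0.27. Complex I had 5 higher and 20 lower, complex II 0 and 3, complex III 0 and 5, complex IV 1 and 8, and complex V 0 and 13. No tested gene of complexes III and V had a log2 difference above 0, and their medians were -0.41 and -0.34. The total ANKRD10 count did not separate the siRNAs, with a log2 difference of -0.00 (edgeR adjusted p = 0.9854).

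Across experiments, 74 of the 90 genes were called in at least 1 of the 6 comparisons and 23 were called in both directions. The matching shares over all genes were not counted, so these counts do not set the respiratory chain genes apart from other genes. ATP5MG was the gene with most rises, in 4 of 6 (both isoforms and both siRNAs). The ANKRD10-2 overexpression and siANKRD10-2 comparisons use separate tables and controls. Of the 13 genes called with the first and the 50 called with the second, 5 went up with overexpression and down with knockdown (38.46% and 10% of these lists): ATP5F1A, UQCRC2, ATP5PB, UQCRH and NDUFB10. They were 5.95% of the 84, beside 4.04% of all 18283 genes tested in both. No respiratory chain gene went down with overexpression and up with knockdown, beside 3.18% of all genes. Taken in either direction, opposite calls were thus 5.95%, below the 7.23% of all genes. Another 3 rose in both (3.57%, beside 1.99% of all genes): ATP5MG, NDUFA6 and NDUFA1. ATP5F1A, the α subunit of ATP synthase, rose by 0.24 ± 0.07 (edgeR adjusted p = 0.02234) and fell by 0.28 ± 0.06 (adjusted p = 0.0003828). UQCRC2 rose by 0.20 ± 0.06 and fell by 0.22 ± 0.07. Their overexpression calls were kept in 2 of 6 fits that left out a library, and the count of 5 opposite genes became 0 without Vector replicate 2, 1 without ANKRD10-2 replicate 1, 2 without Vector replicate 1 or 3, and 3 without ANKRD10-2 replicate 3, siNC replicate 3 or siANKRD10-2 replicate 1 or 2.

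The 13 subunits made from mitochondrial DNA did not follow the nuclear genes in KO2. There 0 rose and 10 fell, with a median log2 fold change of -0.19, whereas in KO1 1 rose (MT-ND6, 0.24 ± 0.05) and 0 fell. With ANKRD10-2 7 fell and 0 rose (median -0.16), and with ANKRD10-1 and siANKRD10-1 none was called. With siANKRD10-2 11 fell and 1 rose (median -0.65). The shares over all genes in each comparison are given beside the assembly factors below. MT-ND4 and MT-ND1 of complex I fell by 0.94 ± 0.07 and 0.93 ± 0.09, MT-CYB of complex III by 0.81 ± 0.07 and MT-CO2 of complex IV by 0.80 ± 0.07, while MT-ND3 rose by 0.29 ± 0.07.

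Of 57 assembly factor genes, 20 rose and 5 fell in KO1, 9 and 6 in KO2, 2 and 1 with ANKRD10-1, 5 and 2 with ANKRD10-2, 4 and 1 with siANKRD10-1, and 7 and 15 with siANKRD10-2. Among all genes tested, 17.9% rose and 18.2% fell in KO1, and 19.3% and 19.2% in KO2. These shares were 3.5% and 2.81% with ANKRD10-1, and 10.7% and 9.25% with ANKRD10-2. They were 5.08% and 5.52% with siANKRD10-1, and 17.6% and 18.7% with siANKRD10-2. With siANKRD10-2 the 24 complex IV factors had 4 rises and 9 falls, among the latter the copper chaperone COX17 (-0.47) and COX10 (-0.51), which makes heme O. Cytochrome c (CYCS) rose in 5 of the 6 comparisons: by 0.50 in KO1, 0.36 in KO2, 0.25 with ANKRD10-1, 0.39 with ANKRD10-2 and 0.35 with siANKRD10-2. CYC1 rose in KO1 (0.40) and KO2 (0.26).

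Of 13 regulators of respiratory chain genes, 7 rose and 2 fell in KO1, 4 and 2 in KO2, 3 and 0 with ANKRD10-1, 4 and 0 with ANKRD10-2, 0 and 2 with siANKRD10-1 and 1 and 4 with siANKRD10-2. The shares over all genes are those given beside the assembly factors. MYC, a transcription factor that binds E-boxes, rose by 0.42 ± 0.05 in KO1, 0.17 ± 0.05 in KO2 and 0.55 ± 0.06 with ANKRD10-2, and fell by 0.60 ± 0.06 with siANKRD10-2. TFAM, which packages and transcribes mitochondrial DNA, rose by 0.21 ± 0.05 in KO1 and fell by 0.47 ± 0.06 with siANKRD10-2. NRF1 itself was not called in KO1 (-0.05) or with siANKRD10-2 (-0.21). With siANKRD10-2, 5 of the 7 genes with an E-box in the promoter window fell and 0 rose, beside 29 falls and 7 rises among 63 tested genes without one. Where MYC rose, the 7 E-box genes varied. In KO1 2 rose and 3 fell (median -0.27), beside 17 and 4 of 63 without an E-box (median 0.12). With ANKRD10-2 1 rose and 0 fell (median 0.07), beside 9 and 0 of 63 (median 0.09). In KO2 4 rose and 0 fell (median 0.16), beside 14 and 3 of 63 (median 0.03). The 3 E-box genes that fell in KO1, NDUFA11, NDUFS7 and UQCR11, lie on chromosome 19. The median of 1186 other tested genes of that chromosome was -0.38 in KO1, where 46.12% fell, and the chromosome 19 median was -0.00 in KO2. The part of this chromosome-wide shift was not tested. The ETS core genes had 2 rises and 11 falls of 20 with siANKRD10-2, beside 5 and 23 of 50 tested genes without this core. The NRF1 core genes had 2 and 6 of 13 with the same siRNA, beside 5 and 28 of 57 without it. Medians were -0.26 with and -0.14 without the ETS core, and -0.10 with and -0.17 without the NRF1 core. Whether the regulators have a part in these changes was not tested.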

How the data were processed

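RNA was extracted with TRIzol and made into stranded mRNA libraries. The submitters' processing notes name Trimmomatic 0.36, featureCounts of Subread 1.5.1 and GRCh38, while the paper names HISAT2 and StringTie. The deposited tables hold raw counts per gene, which the authors did not normalize. Genes, groups and lists were chosen with earlier results of these data known. Groups came from the labels, and KO1 and KO2 were compared with the wild-type group of the same number. In R 4.3.3, edgeR 4.0.16 served for filtering (filterByExpr, minimum count 10, minimum total 15), TMM scaling and the quasi-likelihood test. P-values were adjusted by Benjamini-Hochberg across the whole filtered table, and genes with an adjusted p under 0.05 were called. Only the compared groups entered a fit, except for the difference between knockouts. Log2 fold changes used a prior count of 0.125 and errors beside them are standard errors. CPM used TMM library sizes over the whole table. At the library totals given above, counting error is small for most of these genes and the spread between libraries sets the precision. Chromosomes came from GENCODE v29.

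Genes were named by rule: in each comparison the 3 largest rises and 3 largest falls among called genes with a mean normalized count of at least 50, at most 5 genes called alike in both knockouts, 5 called oppositely in them and 5 called oppositely with ANKRD10-2 overexpression and siANKRD10-2, the highest and lowest gene per complex, tissue-restricted paralogues, and SDHA to SDHD. Other names, such as the other called genes, COX6C, COX7C and pathway genes, were chosen after their values were seen. Scripts were tested on simulated data. Alternatives were RLE and upper quartile scaling, DESeq2 1.42.0, no filter, the replicate number as a block, other groups in the fit, NDUFA4 counted in complex I, and leaving out each library. An exact two-sided permutation test of 2 groups of 3 has a smallest p of 0.1, so the calls rest on edgeR's model. The values of 1 gene that the naming rule picked are not reported here.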

Additional observations from a re-analysis of the deposited data

Results flagged for a closer look

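The effects of the knockouts differed by the direct test over the 12 libraries of the knockout table (edgeR adjusted p under 0.05) in 21 genes. Values are the log2 fold change of KO1 against WT1 minus that of KO2 against WT2. The difference was positive for 12: 0.7169 for NDUFA8, 0.7026 for NDUFB6, 0.3589 for NDUFB8, 0.3283 for ATP5MC1, 0.3264 for SDHD, 0.2914 for UQCRC2, 0.2861 for SDHC, 0.282 for ATP5F1C, 0.2802 for ATP5PD, 0.2594 for ATP5MC3, 0.2393 for NDUFV1 and 6.344 for ATP5MF-PTCD1. The last gene had 0, 0 and 0.030 CPM in WT1, its reads overlap those of ATP5MF, and its fitted value depends on the prior count. It was negative for 9: -0.223 for ATP5PF, -0.3485 for NDUFS8, -0.4282 for COX6B1, -0.5257 for UQCRFS1, -0.5348 for NDUFA3, -0.5652 for NDUFA11, -0.614 for NDUFV3, -0.6624 for NDUFS7 and -0.7024 for UQCR11. NDUFA8 and NDUFB6 lie on chromosome 9, where the median difference of the other 768 tested genes was 0.42. COX6B1, UQCRFS1, NDUFA3, NDUFA11, NDUFS7 and UQCR11 lie on chromosome 19 (median of 1282 other genes -0.38), and NDUFV3 and ATP5PF on chromosome 21 (median of 220 other genes -0.41). The part of these chromosome-wide differences was not tested.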

How the results depend on the processing

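Most counts were stable under other settings. With the replicate number as a block, siANKRD10-1 gave 14 calls in place of 9. ANKRD10-2 against ANKRD10-1 gave 1 call in place of 0 with DESeq2 and 1 with no filter on low counts. Genes called oppositely in the knockouts went from 5 to 2 with upper quartile scaling and to 2 with no filter. The cause of these shifts was not tested. Leaving out 1 library at a time gave 26 to 37 calls in KO1, 15 to 22 in KO2, 0 to 5 with ANKRD10-1, 3 to 12 with ANKRD10-2, 3 to 15 with siANKRD10-1, 40 to 46 with siANKRD10-2, 0 to 0 for ANKRD10-2 against ANKRD10-1, 50 to 59 for siANKRD10-2 against siANKRD10-1, 0 to 1 for WT2 against WT1 (1 without WT2 replicate 3) and 15 to 24 for the difference between knockouts. Genes called alike in both knockouts numbered 7 to 10 and oppositely 2 to 6 (2 without WT2 replicate 1 or KO2 replicate 2, 3 without WT2 replicate 3 or KO2 replicate 3), and those called oppositely with ANKRD10-2 overexpression and siANKRD10-2 numbered 0 to 5. Among the named values, no log2 fold change changed sign with a call: under other settings 19 calls were lost and 19 gained while 802 kept their side of the threshold, and under left-out libraries 73 were lost and 4 gained while 763 kept it. Correlations of the deviations from the group means were computed between libraries of the same number, and their values lay on both sides of 0. Not every correlation passed 0.1, and the main fits did not pair the samples. This criterion cannot exclude pairing. For Vector and ANKRD10-2 the same-number values were 0.064, 0.134 and 0.158, where different numbers gave -0.157 to 0.039. For WT1 and KO1 the same-number values were 0.074, 0.016 and -0.029. For WT2 and KO2 they were 0.078, 0.074 and 0.061, where different numbers gave -0.065 to -0.009. A fit with the block left every other count of calls over the respiratory chain genes within 1.5 times.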
